A study of Mus musculus with 7 samples.

Results

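Ribosomal protein genes of mouse lung were followed across 7 RNA-sequencing libraries of the C57BL/6 strain. Of the 28828 entries in the count table, 86 were taken as members because their symbol has the form of a ribosomal protein gene (Rpl or Rps, a number and at most a letter and a digit) or is Rplp0, Rplp1, Rplp2 or Rpsa. The rule used names only and no measured value. The knockout group (KO, 3 libraries named KO3, KO4 and KO5) carried a disruption of Scgb3a2, a gene for a secreted secretoglobin of the airway, and the wild type group (WT, 4 libraries named WT2, WT3, WT4 and WT6) did not. Lung RNA was extracted with Trizol, and no treatment is named for either genotype. The labels give no age, sex or litter, nor the part of Scgb3a2 that was removed, and do not say whether each library was made from its own mouse, so p-values reflect only how these libraries differ among themselves.

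The cytoplasmic ribosome is built of a large (60S) and a small (40S) subunit, each a scaffold of ribosomal RNA clothed in proteins, most of which are needed in equal numbers. Vertebrate mRNAs of these proteins usually open with a run of pyrimidines, the 5′ terminal oligopyrimidine tract, through which growth signals by way of mTOR set their translation together. Their short, abundant, intron-spliced transcripts have also left many processed pseudogenes, reverse-transcribed copies scattered through the genome, so that reads of a gene and its copies can be hard to tell apart.

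The 86 members comprised 51 genes of the 60S subunit and 35 of the 40S subunit. There were 77 core genes, 4 paralogues (Rpl3l, Rpl7l1, Rpl22l1 and Rps27l) and 5 genes that GENCODE M21 annotates as processed pseudogenes, Rps4l as a transcribed one (Rpl6l, Rpl32l, Rps3a2, Rps3a3 and Rps4l). Core genes held 1304374 counts over all libraries, the paralogues 7519 and the annotated pseudogenes 2092. The filter on low counts kept 85 members. Rpl3l, a paralogue of Rpl3 best known from heart and skeletal muscle, did not pass, with 8, 2 and 7 counts in KO3, KO4 and KO5, against 8, 9, 9 and 3 counts in WT2, WT3, WT4 and WT6.

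Library totals ranged from 13071262 to 16480006 counts. Scgb3a2 had 19, 19 and 37 counts in the KO libraries, against 4204, 4170, 2636 and 4165 counts in the WT libraries, as labelled. All 8 lung markers examined, among them Sftpc of alveolar type 2 cells and Scgb1a1 of club cells, were detected in every library. KO5 and WT6 stood apart from the other 5 libraries over the whole transcriptome and, as described below, in the ribosomal protein genes. The chi-square per degree of freedom was 9.22 between KO5 and WT6 and 17.45 to 27.21 between either of them and another library. WT2 also stood apart, at 13.18 to 18.13 from KO3, KO4, WT3 and WT4, which were 4.30 to 7.70 from each other. The main results by genotype are given with and without KO5 and WT6. They are 1 library of each genotype, and the labels name nothing that they share.

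Ribosomal protein genes held 1.28%, 1.24% and 1.35% of all counts in KO3, KO4 and KO5, against 1.17%, 1.27%, 1.23% and 1.26% in WT2, WT3, WT4 and WT6. The highest share was in KO5 and the lowest in WT2, and the ranges of the genotypes overlapped. The mean was 1.29% ± 0.0574 in KO lung (SD, n = 3) and 1.24% ± 0.0435 in WT lung (SD, n = 4). The difference of 0.0542 percentage points is smaller than the SD of the KO libraries and larger than that of the WT libraries. Without KO5 and WT6 the means were 1.26% in KO lung (n = 2) and 1.23% in WT lung (n = 3). In whole lung, fewer cells of a type and less RNA per cell cannot be told apart.

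The balance of the subunits set KO5 and WT6 apart. The summed counts of 60S genes were 1.44, 1.46 and 1.33 times those of 40S genes in KO3, KO4 and KO5, against 1.45, 1.45, 1.47 and 1.33 times in WT2, WT3, WT4 and WT6. The ratio was the lowest in KO5 and WT6, while the other 5 libraries lay within 1.44 and 1.47. The means were 1.41 ± 0.0722 in KO lung (SD, n = 3) and 1.42 ± 0.0648 in WT lung (SD, n = 4). Without KO5 and WT6 they were 1.45 in KO lung (n = 2) and 1.46 in WT lung (n = 3).

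**Figure D1:**
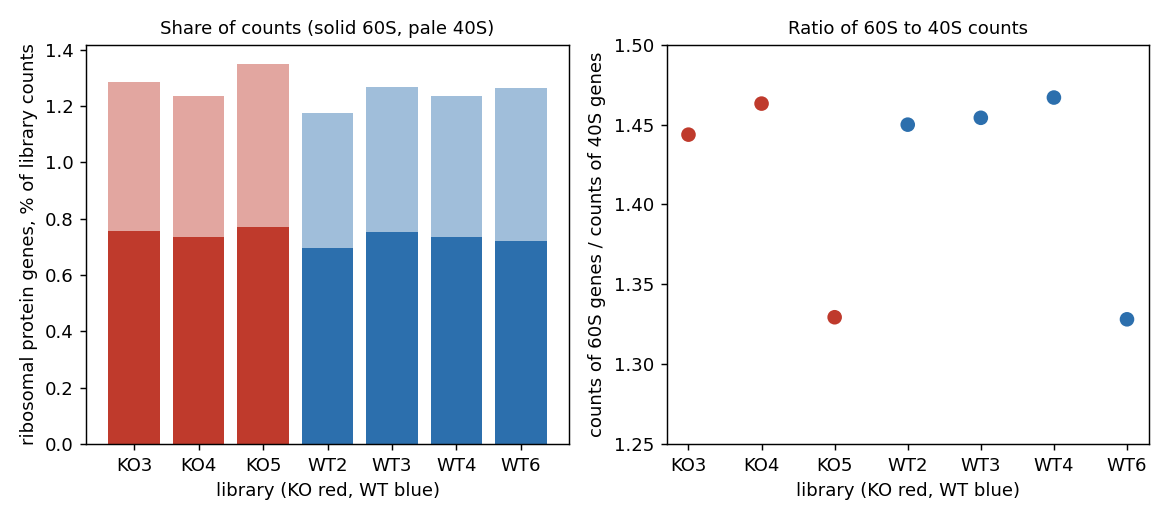
Left, percentage of each library's counts in ribosomal protein genes, as stacked bars with 60S genes solid and 40S genes pale; right, the ratio of 60S to 40S counts, 1 point per library, on an axis that does not start at 0. KO libraries are red and WT libraries blue. Shares run between 1.17% and 1.35%, and the ratio is 1.33 in KO5 and WT6 against 1.44 to 1.47 elsewhere.

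Levels of single members are given as CPM, that is, counts scaled to a common library size after TMM normalization, and levels of different genes are compared per kb of the main annotated transcript. Over the 77 core genes the median level was 210 CPM per kb. The middle of the distribution was narrow, with a ratio of 3.48 between the 90th and the 10th percentile. The highest levels per kb were those of Rplp1, an acidic protein of the ribosomal stalk (547 CPM per kb), Rpl41, the shortest ribosomal protein (462 CPM per kb), Rps12 (417 CPM per kb), Rpl21 (409 CPM per kb) and Rps28 (384 CPM per kb). Among all tested members the 5 lowest were Rpl24 (1.22 CPM per kb), Rpl6l (1.29 CPM per kb), Rps3a2 (1.37 CPM per kb), Rps3a3 (3.34 CPM per kb) and Rpl32l (3.74 CPM per kb).

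Rpl24, a core protein of the large subunit, had only 7, 10 and 16 counts in KO3, KO4 and KO5, against 11, 12, 12 and 17 counts in WT2, WT3, WT4 and WT6. It was low in every library. In GENCODE M21 its locus overlaps Gm28037, a processed transcript that shares 69.43% of the 50-base words of Rpl24 and is not among the counted entries used here. Rpl13a, also of the large subunit, stood at 8.0 CPM per kb and overlaps Gm45713, which shares 57.41% of its words. Rps10 overlaps RPS10-NUDT3 to a larger extent, with 90.65% of its words shared, and stood at 251 CPM per kb. How the counting treated strand and shared reads was not given in the sources used here. The levels of these 3 genes are therefore uncertain, and whether the overlap lowers them was not tested. Pseudogenes that share words with them and are counted separately held 736% as many counts as Rpl24, 49.5% as Rpl13a and 1.70% as Rps10. The next highest core gene by this share was Rpl23a, at 27.4%. Whether reads of the genes were counted in their copies was not tested either.

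Sharing of sequence was the rule among members. The median core gene had 55.41% of its 50-base words in at least 1 other annotated gene, with a range of 0 to 98.65%. Rps3, a small subunit protein with a described role in DNA repair, shared 2.96%. Rps27, a zinc finger protein of the small subunit, shared 98.65%. The table lists 586 annotated pseudogenes that share such words with a member as entries of their own, and these summed to 5087 to 6287 counts per library.

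Start-site sequences are shown first because the pyrimidine run at the start is the feature by which these mRNAs are known. The RefSeq promoter table for GRCm38.p6 held 62 of the 86 members. Each line gives 60 bases in the direction of transcription, 40 before the annotated start and 20 from it on, with the longest run of C and T that touches the 20 bases on either side of the start in capitals. The first 4 genes were lower in KO5 and WT6 than in the other libraries and the last 4 were higher, as described below.
Rpl35, chr2:39005112-39005171, minus strand: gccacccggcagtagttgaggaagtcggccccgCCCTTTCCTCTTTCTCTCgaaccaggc
Rps26, chr10:128626487-128626546, minus strand: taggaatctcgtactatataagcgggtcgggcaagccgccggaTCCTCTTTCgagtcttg
Rps6, chr4:86857348-86857407, minus strand: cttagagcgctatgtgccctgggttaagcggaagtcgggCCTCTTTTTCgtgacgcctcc
Rpl28, chr7:4792925-4792984, plus strand: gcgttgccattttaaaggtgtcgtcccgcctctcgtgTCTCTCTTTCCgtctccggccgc
Rps21, chr2:180257339-180257398, plus strand: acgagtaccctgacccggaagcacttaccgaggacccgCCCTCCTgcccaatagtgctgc
Rps13, chr7:116334171-116334230, minus strand: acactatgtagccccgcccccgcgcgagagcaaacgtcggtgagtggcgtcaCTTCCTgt
Rpl39, chrX:37085203-37085262, minus strand: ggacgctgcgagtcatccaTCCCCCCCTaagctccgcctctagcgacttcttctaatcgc
Rpl9, chr5:65391412-65391471, minus strand: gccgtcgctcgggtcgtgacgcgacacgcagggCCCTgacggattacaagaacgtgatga

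The longest run was 18 bases in Rpl35, 11 in Rpl28, 10 in Rps6 and 9 in Rps26. It was 9 in Rpl39, 7 in Rps21, 6 in Rps13 and 4 in Rpl9. These genes were picked by hand after their values were seen and do not stand for all members that shifted. The table holds a second start for Rps21, whose longest run was 5 bases. A run of at least 7 bases of C or T, read on the gene's own strand, touched this stretch in 38 of 62 members (61.3%), against 33.7% of all 27025 genes in the table. CGGAAG, the core of a site for ETS family factors, was searched on both strands of the full window of 250 bases before and 50 bases after the start. It was found in 66.1% of members, against 18.8% of all genes. TATAAA, searched in the same way, was found in 12.9% of members and 15.7% of all genes. The opposite strand of CGGAAG reads CTTCCG, so part of it can lie within a pyrimidine run. Among members with a promoter entry, the pyrimidine run was present in 6 of 7 genes that were lower in KO5 and WT6 by over 0.5 log2 units and in 8 of 11 that were higher by as much. These are matches of letters in a window and not measured sites.

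The comparison of genotypes asked whether ribosomal protein mRNA differed in lungs without Scgb3a2. No ribosomal protein gene passed the test, which was edgeR's quasi-likelihood test with an adjusted p under 0.05 over all genes tested. The count was 0 of 85 members, against 7 of 19832 genes (0.0353%), with 0 higher against 0.0252% of all genes and 0 lower against 0.0101%. At so low a background the count says little about the members. The number of all genes called was 3 without WT2, WT3 or WT4 and 41 without KO3, and no member was among them. With an unadjusted p under 0.05 there was 1 member, Rps4l, against 2.87% of all genes. DESeq2 also called 0 members, with 1 at an unadjusted p under 0.05. In no member did the KO libraries all lie above or all lie below the WT libraries, against 2.11% of all genes above and 1.61% below.

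The fold changes of members were small. The median log2 fold change (KO over WT) was 0.04, the quartiles were -0.01 and 0.10, and the whole range was -0.44 to 0.50. The median over all genes tested was -0.01. Positive values were found for 58 of 85 members, against 48% of all genes. This count moved with single libraries, being 39 without WT2 and 70 without WT3, and it was 30 with the replicate number as a block in the fit. The median moved with it, to -0.0038 without WT2, 0.07 without WT3 and -0.04 with the block. In the 5 libraries without KO5 and WT6, 51 of 85 members were positive, with a median of 0.02, and 0 were called. In those libraries the log2 fold change was 0.29 ± 0.11 for Rpl27, 0.14 ± 0.10 for Rpl12 and -0.56 ± 0.18 for Rps4l (SE), genes described next. The median was 0.03 among 60S genes, with 29 of 50 positive, and 0.07 among 40S genes, with 29 of 35 positive. The typical standard error was 0.14 on the log2 scale, and only 4 members differed by more than 0.25.

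Among members higher in KO lung, the 6 with the smallest p were Rpl27 of the large subunit, Rpl12, a protein at the base of the stalk, Rps3a2, Rplp0, to which the other stalk proteins bind, Rpl31, a protein near the exit of the peptide tunnel, and Rps2, a small subunit protein at the mRNA entry site. None of them passed the adjusted threshold. Rpl27 had 65.8, 74.0 and 73.1 CPM in KO3, KO4 and KO5, against 53.0, 58.8, 59.9 and 72.9 CPM in WT2, WT3, WT4 and WT6. WT6 lay within the KO values, so the groups overlapped. Its log2 fold change was 0.21 ± 0.12 (SE), and edgeR gave 0.9998 as adjusted p. Rpl12 had 135, 138 and 165 CPM in the KO libraries, against 116, 132, 124 and 148 CPM in the WT libraries. KO5 and WT6 were the highest of their genotypes, and the log2 fold change was 0.17 ± 0.12 (SE). The log2 fold changes of Rplp0 and Rpl31 were both 0.12 ± 0.12 (SE), that of Rps2 was 0.11 ± 0.11 (SE), and that of Rps3a2 was 0.50 ± 0.41 (SE) at a mean level of 1.31 CPM in KO and 0.918 CPM in WT lung.

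Among members lower in KO lung, Rps4l had the smallest p. Rps4l is an intronless relative of Rps4x and has the annotation of a processed pseudogene. It had 186, 151 and 165 counts in KO3, KO4 and KO5, against 319, 212, 220 and 178 counts in WT2, WT3, WT4 and WT6. In CPM these were 12.6, 9.61 and 11.9 in KO lung, against 19.2, 13.5, 16.3 and 12.5 in WT lung. KO3 lay just above WT6, and WT2 was well above all others. It differed by -0.44 ± 0.18 (SE) on the log2 scale. In edgeR the p was 0.0291 before and 0.9998 after adjustment. Without WT2 it was -0.31 ± 0.17. Its relative Rps4x, the X-linked small subunit gene, averaged 305 ± 57.9 CPM in KO lung (SD, n = 3) and 291 ± 39.0 CPM in WT lung (SD, n = 4).

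The acidic stalk proteins Rplp1 and Rplp2, which with Rplp0 bind the translation factors, had log2 fold changes of -0.08 ± 0.13 and -0.13 ± 0.11 (SE). Rplp2 had 111, 91.9 and 106 CPM in the KO libraries, against 121, 103, 124 and 102 CPM in the WT libraries, with overlap. Rps3a3, at -0.36 ± 0.27 (SE), Rpl23a, at -0.32 ± 0.37, and Rpl30, at -0.09 ± 0.13, completed the 6 with the smallest p on the lower side. Rpl23a moved with single libraries, to -0.07 without KO5 and -0.59 without KO3, and Rpl30 was -0.01 without WT3. None of these passed the adjusted threshold.

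**Figure D2:**
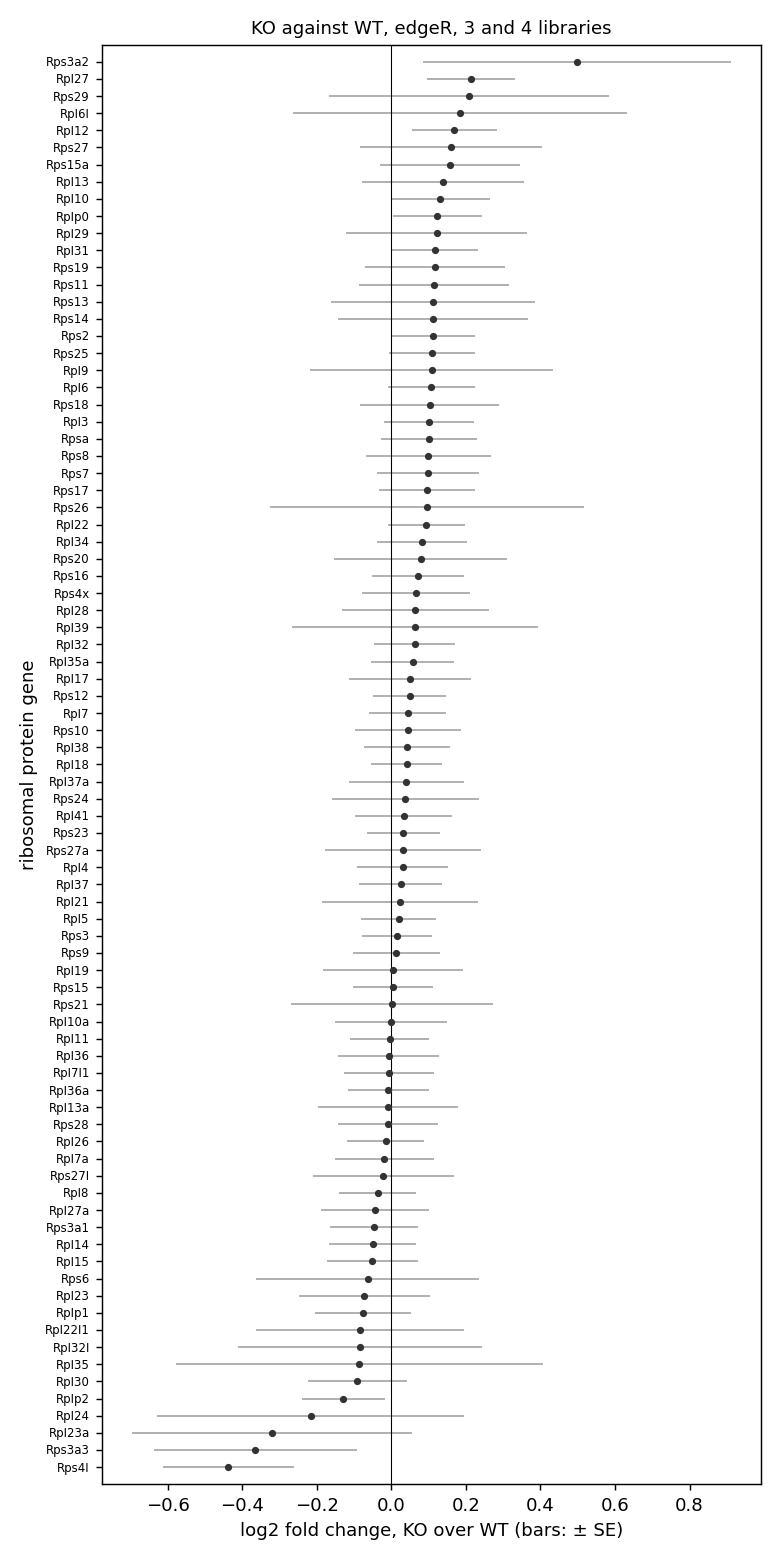
Log2 fold change of 83 of the 85 tested ribosomal protein genes, KO over WT, from edgeR with 3 KO and 4 WT libraries; points are estimates, bars are ± 1 SE, and genes are ordered by the estimate from the highest at the top. Estimates run from 0.50 (Rps3a2) to -0.44 (Rps4l), and the widest bar is that of Rpl35 (SE 0.49).

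Genes with known roles outside the ribosome or in disease did not pass the test either. Rpl5 and Rpl11, which with 5S RNA bind Mdm2 when ribosome assembly fails, had log2 fold changes of 0.02 ± 0.10 and 0.00 ± 0.10 (SE). Rpl5 averaged 257 ± 3.38 CPM in KO lung (SD, n = 3) and 254 ± 21.3 CPM in WT lung (SD, n = 4). Rps19, the gene most often mutated in human Diamond-Blackfan anaemia, was at 0.12 ± 0.19 (SE). Rpsa, also described as a laminin receptor, was at 0.10 ± 0.13 (SE). Rps6, the substrate of S6 kinase, was at -0.06 ± 0.30 (SE).

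The paralogues were far lower than the genes they resemble. Rpl22l1 stood at 13.4 CPM per kb and Rpl22 at 187 CPM per kb. Rpl7l1 stood at 34.6 CPM per kb and Rpl7 at 263 CPM per kb. Rps27l, a target of p53, stood at 38.8 CPM per kb and Rps27 at 348 CPM per kb. None of the tested paralogues passed the test between genotypes, with log2 fold changes of -0.08 ± 0.28, -0.01 ± 0.12 and -0.02 ± 0.19 (SE) for Rpl22l1, Rpl7l1 and Rps27l. Rpl36 and Rpl36a of the large subunit were both at -0.01, with SE of 0.14 and 0.11. Rpl10 and Rpl39, X-linked genes of the large subunit, were at 0.13 ± 0.13 and 0.06 ± 0.33 (SE).

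Other genes of the pathway were examined in lists written by hand, and 0 of them were called in either direction. Of 23 further translation genes that are commonly counted among mRNAs with a pyrimidine tract, such as Fau, which encodes Rps30 fused to a ubiquitin-like protein, and Pabpc1, the poly(A)-binding protein, 18 had positive log2 fold changes, with a median of 0.03. Fau was at 0.12 ± 0.10 and Pabpc1 at 0.13 ± 0.11 (SE). Of 38 ribosome biogenesis genes 9 were positive, with a median of -0.04. The one with the smallest p was Rrp9, a component of the U3 small nucleolar particle, which had 10.1, 9.42 and 12.7 CPM in the KO libraries, against 13.7, 11.6, 15.5 and 15.1 CPM in the WT libraries. KO5 lay above WT3, and the difference was -0.38 ± 0.16 (SE) on the log2 scale (edgeR, adjusted p = 0.9998). Of 18 regulators of ribosome production and translation, among them Rptor of the mTOR complex, 8 were positive, with a median of -0.01. Of 9 tested host genes of small nucleolar RNAs 6 were positive, with a median of 0.06. Of 77 mitochondrial ribosomal protein genes, which build the separate ribosome of mitochondria, 28 were positive, with a median of -0.03. Without KO5 and WT6, the positive genes numbered 16, 8, 9, 6 and 41 in these 5 lists in the same order, and again 0 were called.

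Little of the members' variation over libraries was a level common to all of them. For each member, the log2 CPM of each library was set against the member's own mean over the 7 libraries. The median deviation over members was 0.03, -0.05 and 0.09 in KO3, KO4 and KO5, against -0.13, 0.03, 0.02 and -0.01 in WT2, WT3, WT4 and WT6. WT2 was the lowest, with 20 of 85 members above their own mean, and KO3 had the most, with 52 of 85. A common level per library held 5.70% of the members' summed squared deviations. The share was 7.20% for the 68 members with a mean log2 CPM of at least 6, 6.02% for 3463 other genes at that level, 6.56% for 77 mitochondrial ribosomal protein genes and 0.657% over all genes tested.

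Most of the variation lay in a contrast between members, seen in KO5 and WT6. The leading component of the deviations held 75.3% of their squares, against 51.4% for mitochondrial ribosomal protein genes. At a mean log2 CPM of at least 6 it held 83.9% for members, against 56.1% for the other genes. Its weights were 0.57 in KO5 and 0.62 in WT6 and between -0.26 and -0.22 in the other 5 libraries. The SD of the deviations over members was 0.20, 0.20 and 0.36 in KO3, KO4 and KO5, against 0.20, 0.19, 0.19 and 0.39 in WT2, WT3, WT4 and WT6. The number of members more than 0.5 log2 units from their own mean was 16 in KO5 and 17 in WT6, and 2 or 3 in each of the other libraries. These are descriptions of libraries that were picked out by their values, so no test was made between this pair and the rest.

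**Figure D3:**
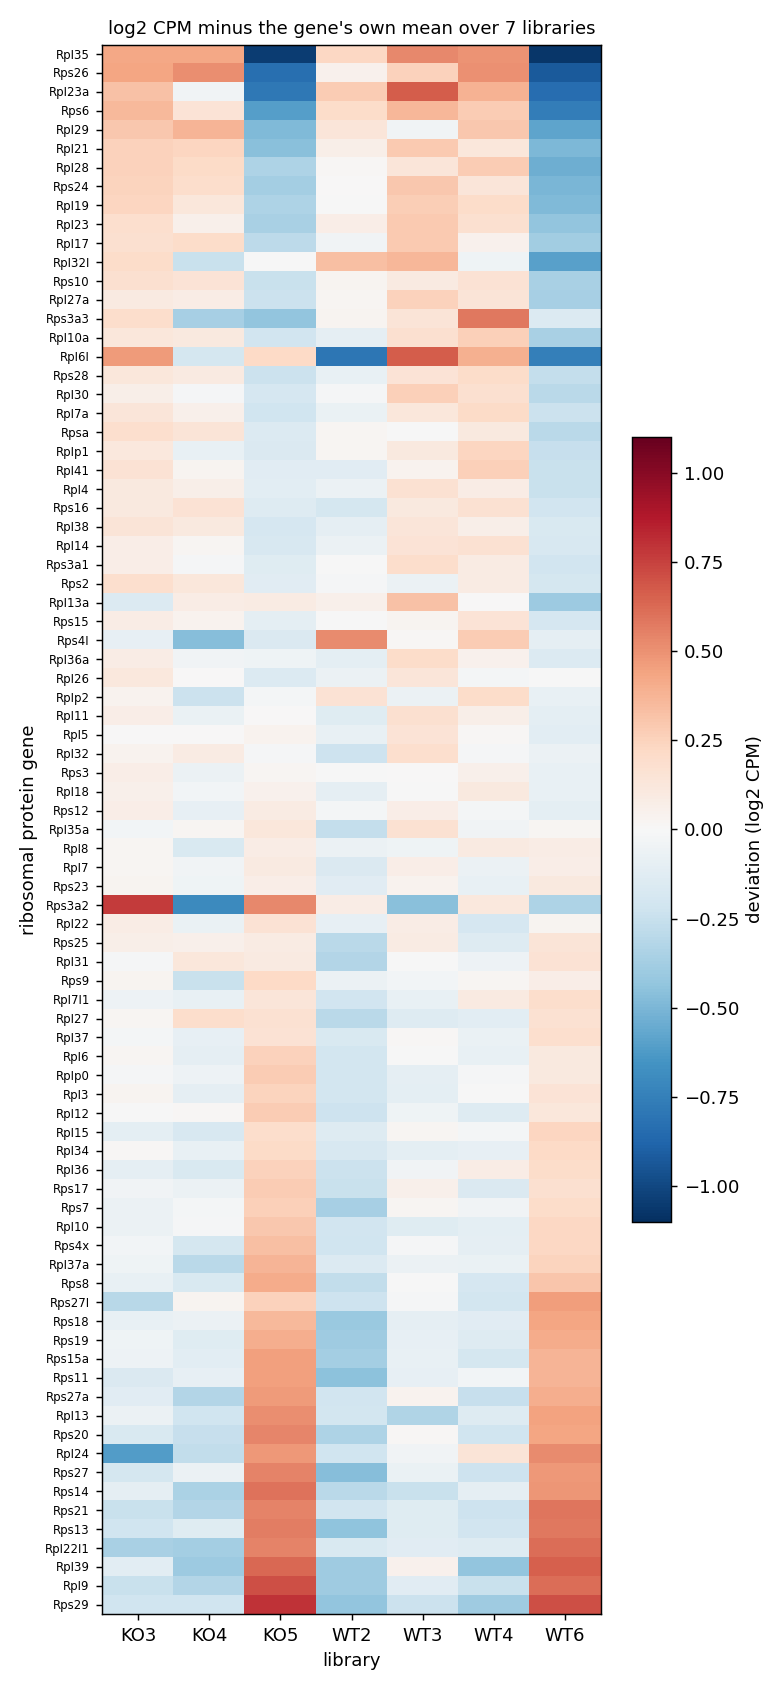
Deviation of 83 of the 85 tested ribosomal protein genes (rows, ordered by their shift in KO5 and WT6), each from its own mean over 7 libraries (columns, KO left of WT), in log2 CPM, with red higher and blue lower. KO5 and WT6 carry the same pattern of low genes at the top and high genes at the bottom, while the other 5 columns are paler.

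In KO5 and WT6, 35 members lay above and 26 below every one of the other 5 libraries, together 71.8% of the 85 tested. It was 33.6% of all genes tested. Among the 68 members with a mean log2 CPM of at least 6 it was 73.5%, against 45.5% of the other genes at that level. The mean shift of the pair against the other 5 was beyond 0.5 log2 units for 27 members, of which 16 were higher and 11 lower. This was 31.8% of members, against 18.8% of all genes. At a mean log2 CPM of at least 6 it was 27.9% of members, against 7.42% of the other genes.

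The lowest relative level in the pair was that of Rpl35, a large subunit protein near the tunnel exit. Rpl35 had 18.9 CPM in KO5 and 18.6 CPM in WT6, against 52.8 and 52.8 CPM in KO3 and KO4 and 46.0, 56.4 and 55.4 CPM in WT2, WT3 and WT4. The pair had 0.359 times the level of the other 5, a shift of -1.48 on the log2 scale. Rps26, a small subunit protein that contacts mRNA upstream of the start codon, had 64.5 CPM in KO5 and 60.3 CPM in WT6, against 155 and 163 CPM in KO3 and KO4 and 119, 136 and 162 CPM in WT2, WT3 and WT4. Its shift was -1.22.

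Rpl23a, which lies at the tunnel exit and helps dock the signal recognition particle, was shifted by -1.13, with 18.5 and 17.8 CPM in KO5 and WT6 and 31.0 to 50.8 CPM elsewhere. Rps6 had 173 and 156 CPM in the pair and 292 to 339 CPM elsewhere, a shift of -0.95. In these 4 genes both low values lay far under the lowest of the other libraries, with no overlap. Members lower by over 0.5 also included Rpl29, Rpl21, Rpl28, Rps24, Rpl19 and Rpl23, from -0.75 to -0.55.

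The highest relative level in the pair was that of Rps29, a zinc-binding protein of the small subunit head. Rps29 had 124 CPM in KO5 and 116 CPM in WT6, against 60.8 and 61.0 CPM in KO3 and KO4 and 52.5, 60.3 and 54.1 CPM in WT2, WT3 and WT4. The pair had 2.08 times the level of the other 5, a shift of 1.05 on the log2 scale. Rpl9, a large subunit protein near the binding site of translation factors, had 239 and 223 CPM in the pair and 111 to 134 CPM elsewhere, a shift of 0.93. Rpl39, a small protein in the wall of the exit tunnel, had 68.3 and 69.4 CPM in the pair and 32.4 to 45.5 CPM elsewhere, a shift of 0.91.

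Rpl22l1 followed at 10.4 and 11 CPM in the pair and 5.47 to 6.51 CPM elsewhere, a shift of 0.81, whereas its relative Rpl22 was shifted by 0.13. Rps13 had 85.7 and 86.6 CPM in the pair and 42.6 to 52.8 CPM elsewhere. Rps21 had 80.2 and 82.8 CPM in the pair and 43.9 to 49.9 CPM elsewhere. Both of these small subunit genes were shifted by 0.80. Outside the member list, Rack1, a scaffold protein bound to the small subunit, had 324 and 298 CPM in the pair and 197 to 228 CPM elsewhere, a shift of 0.51.

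Other members differed little between the pair and the rest. Rps3, chosen after its values were seen because few of its 50-base words are shared, had 264, 240 and 254 CPM in KO3, KO4 and KO5, against 251, 252, 261 and 237 CPM in WT2, WT3, WT4 and WT6. Its shift in the pair was -0.04. Rpl8, a large subunit protein with 253 CPM in both KO5 and WT6 and 214 to 256 CPM elsewhere, was shifted by 0.11.

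**Figure D4:**
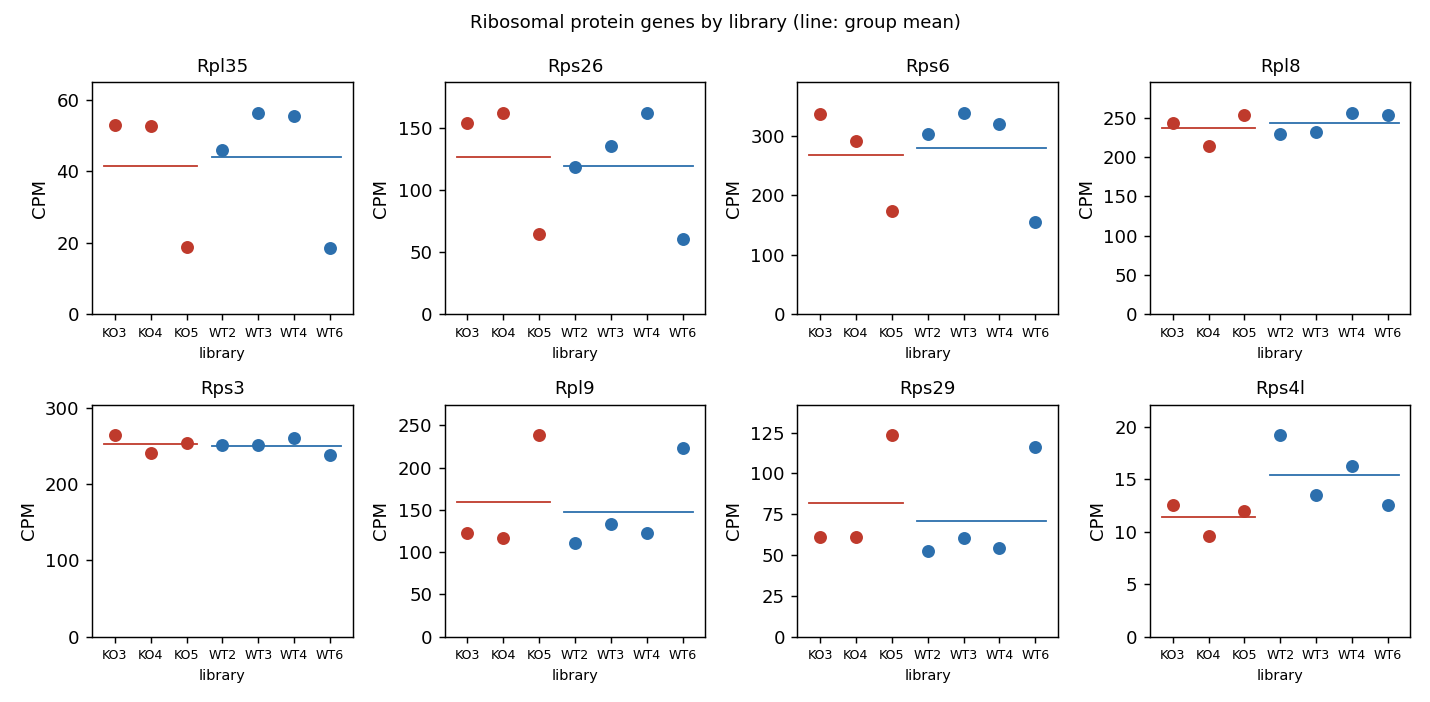
CPM of 8 ribosomal protein genes in each library, with KO in red, WT in blue and a line at each group mean; axes start at 0. Rpl35, Rps26 and Rps6 are low and Rpl9 and Rps29 high in both KO5 and WT6, Rpl8 and Rps3 are level, and Rps4l shows WT2 above all other libraries.

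The shift was computed within each genotype, so that the 2 estimates share no library. KO5 and WT6 were picked out by their values, however, so a likeness of the estimates is no independent replication. KO5 against the mean of KO3 and KO4 and WT6 against the mean of WT2, WT3 and WT4 gave Pearson's r of 0.923 and Spearman's rho of 0.908 across the 85 genes, a description over genes, which are not independent replicates. The sign was the same for 74 genes (87.1%), against 74.2% of all genes tested, where r was 0.590. All genes tested include many at lower levels than most members, and other genes at a like level were not examined in this way. Beyond 0.5 log2 units, 14 members were higher in both KO5 and WT6, 10 were lower in both, and 0 went opposite ways.

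**Figure D5:**
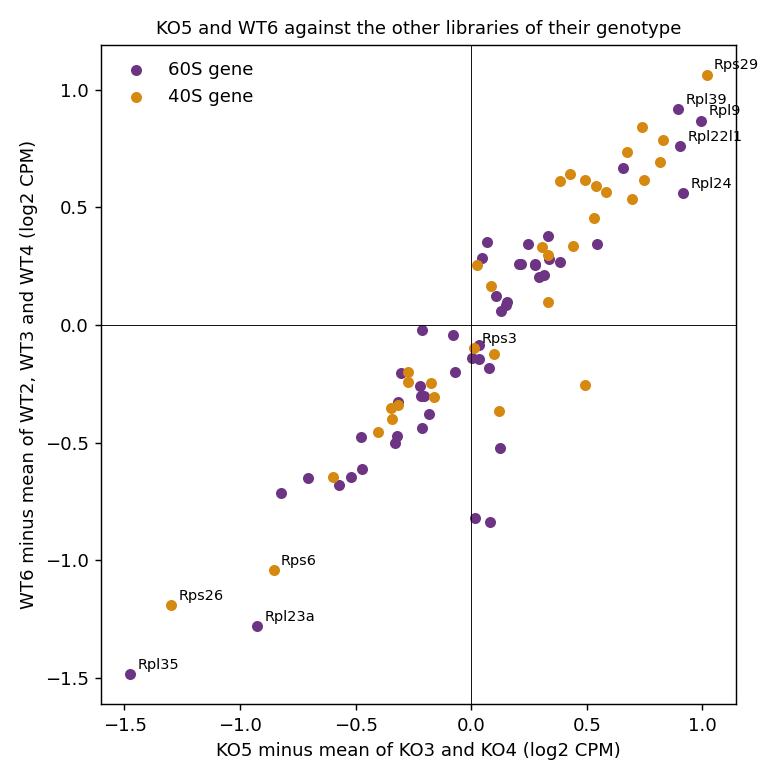
Shift of 83 ribosomal protein genes in KO5 against KO3 and KO4 (horizontal) and in WT6 against WT2, WT3 and WT4 (vertical), in log2 CPM, with 60S genes purple and 40S genes orange. Points run along the diagonal from Rpl35 at the lower left to Rps29 at the upper right, with Rps3 near the centre.

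By subunit, the median shift was 0.16 over 35 small subunit genes, 21 of which were higher, and -0.06 over 50 large subunit genes, 22 of which were higher. Over the 77 core genes, the shift had a Spearman correlation across genes of -0.198 with transcript length, -0.103 with coding length, -0.0853 with GC content, 0.0178 with the share of words held by other genes and -0.00504 with the number of annotated pseudogenes. None of these features ordered the shifts closely.

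Separately counted copies mostly shifted with their parent. Of 24 core members shifted by over 0.5 whose pseudogene entries held at least 100 counts, the summed copies moved in the same direction in 20, namely in 10 of 11 that were lower and in 10 of 13 that were higher. The copies of Rps6 had 72 and 55 counts in KO5 and WT6 and 111 to 156 counts in the other libraries, a shift of -0.94 beside -0.95 for the gene. Those of Rpl35 had 18 and 15 counts in the pair and 39 to 61 elsewhere, a shift of -1.47. The copies of Rpl9 and Rps29 shifted by only 0.06 and 0.12, beside 0.93 and 1.05 for the genes. The copies of Rpl35 held 6.25% as many counts as the gene, and with them added its shift was still -1.48.

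Markers of other tissue also differed between the pair and the other libraries. All 4 mesothelial markers (Msln, Upk3b, Lrrn4 and Wt1) lay above the other libraries in KO5 and WT6, with a summed level of 129 and 117 CPM, against 24.5 to 51.6 CPM elsewhere. All 3 adipose markers (Plin1, Adipoq and Cidec) did the same, with 22.1 and 48.9 CPM, against 11.8 to 16.6 CPM. Of the 8 lung markers 5 lay below, with a sum of 19178 and 22431 CPM, against 26892 to 31729 CPM. The plasma cell and lymphoid lists were the highest in KO5, with sums of 1984 and 102 CPM, against 258 and 30.4 CPM in WT6. The plasma cell sums were 417 and 953 CPM in KO3 and KO4, against 231 to 258 CPM in the 4 WT libraries, and 5 of 5 markers had a positive log2 fold change. Heart muscle markers had 0 of 6 positive, with sums of 326 to 402 CPM in KO and 345 to 765 CPM in WT libraries, and 0 markers of either list were called. No marker of these 6 lists was at 0 in any library. Of the RNA and library markers, the small nuclear RNA Rn7sk lay below the other libraries in the pair, with 8028 and 7791 CPM, against 11582 to 13852 CPM, while Neat1 lay above them and Malat1 did not stand apart in both. Mitochondrially encoded genes took 2.23% and 2.36% of counts in the pair and 2.20% to 3.64% elsewhere. The part of these differences in the values of ribosomal protein genes was not tested.

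The largest standard errors of the genotype comparison among core genes were those of Rpl35 (0.49), Rps26 (0.42), Rpl24 (0.41), Rps29 (0.38) and Rpl23a (0.37). With a term for KO5 and WT6 in the fit, the SE was 0.10 for both Rpl35 and Rps26, 0.08 for Rps29 and 0.13 for Rpl23a, whereas that of Rpl24, with 7 to 17 counts per library, was still 0.37. The log2 fold change of Rpl35 was then 0.01. Again 0 members were called.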

How the data were processed

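Total RNA of lung was sequenced in 7 libraries. The authors deposited unnormalized counts of reads, in whole numbers, for each gene symbol. STAR, DESeq2 and mm10 are named in the submitters' processing notes with neither version nor role. What counted the reads, on which annotation and strand, and how multiply mapped reads were treated was not given in the sources used here. Members that share sequence with their copies depend on it.

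Groups came from the genotype label. Counts of all 28828 entries were fitted with edgeR 4.0.16 in R 4.3.3 (low-count filter by group, 19832 genes kept, TMM, robust quasi-likelihood test of genotype with no covariate, two-sided, Benjamini-Hochberg over all genes, threshold 0.05). DESeq2 1.42.0, other scalings, no filter, a replicate block, leaving out each library, a term for KO5 and WT6, and leaving both out were alternatives. The last 2 were planned with earlier results known, and the counts of positive members and of members outside the other libraries were added after the data were seen. Log2 CPM used a prior count of 2. Shared words were 50-base stretches of a member's main transcript (the APPRIS principal form in GENCODE M21, GRCm38) found in another annotated gene. CPM per kb depends on that transcript.

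The smallest chi-square between libraries was 4.30 per degree of freedom, above sampling noise, so each library was counted once. Such a value cannot show whether the libraries came from different mice. No molecular identifiers are named, so counts carry counting error of reads and not of molecules. The procedure was tested on simulated counts. These were drawn independently for each library, without the pattern that KO5 and WT6 share, so they cannot show how it behaves with that pattern.

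The members and lists were chosen with earlier results of these data known. Named members are the 5 highest and 5 lowest per kb, the 6 with the smallest p in each direction, the 5 with the largest spread left over libraries, the paralogue pairs and 9 genes of known role, with 2 genes of smallest p from each list, of which those bearing on the text are printed. Rps29, Rpl9, Rps13, Rps21, Rps3, Rpl8 and Rpl13a, the other members listed by their shift, and the genes whose start sequences are shown were chosen after their values were seen. Rpl10l, Rpl39l and Rpl36al were not analysed here, and 2 tested members are not reported by name. Sequences came from RefSeq.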

Additional observations from a re-analysis of the deposited data

Results flagged for a closer look

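In groups of 4 to 10 libraries, values were looked at for a library far from the others (a gap to the nearest library above Dixon's critical share of the group's range, a limit that chance passes in about 1 in 20 groups). Only the WT group has 4 libraries, and 54 values of it were looked at. The 5 that passed were all WT6 values, 1 as the lowest and 4 as the highest library. Some of the values looked at, those of Rps21 and Rps29 among them, are of genes chosen after their values were seen. Others are of members chosen for a large spread over libraries. For such values the rate of 1 in 20 does not hold.

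Rpl22l1 had 11 CPM in WT6, against 6.33 to 6.51 CPM in the other WT libraries. Rps21 had 82.8 CPM in WT6, against 46.8 to 49.9 CPM. Rps29 had 116 CPM in WT6, against 52.5 to 60.3 CPM. The ratio of 60S to 40S counts was 1.33 in WT6, against 1.45 to 1.47. The SD over members of their deviations was 0.395 in WT6, against 0.187 to 0.200. KO5 had values near those of WT6 in each of these 5, as given in the report, but a group of 3 was not examined in this way.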

How the results depend on the processing

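In all 15 alternatives 0 ribosomal protein genes were called in either direction. All 180 values of the 12 member genes followed through the alternatives (12 genes in 15 settings) kept their sign and their place above the threshold of adjusted p. The number of all genes called, 7 as reported, was 60 with DESeq2, 140 with the replicate block, 29 with a term for KO5 and WT6, 14 in the 5 libraries without them, and 3 to 41 when leaving out 1 library at a time. The number of members with a positive log2 fold change, 58 as reported, was 30 with the replicate block and 39 to 70 when leaving out 1 library at a time. The median member log2 fold change ran from -0.0038 (without WT2) to 0.07 (without WT3) and was -0.04 with the replicate block. Correlations of same-numbered libraries were 0.236 for number 3 and 0.201 for number 4, but with only 2 shared numbers the libraries share a number and no stated origin, and the block leaves 1 residual degree of freedom. Under other scalings, 59 to 65 members were positive, 34 to 41 lay above and 23 to 27 below the other libraries in KO5 and WT6. The difference in the share of counts was 0.0542 to 0.0691 percentage points with other totals. Depth limits Rpl24 and Rpl3l, with at most 17 and 9 counts in a library.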
